A study of Mus musculus with 2 samples.

Results

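Promoters rich in the dinucleotide CpG were followed through 4 deposited lists of DNase I hypersensitive sites from a mouse erythroid cell system. A promoter was the most 5' start of a gene's protein-coding transcripts on an autosome of the mm9 assembly, 1 per gene. It counted as CpG-rich when the 500 bp centred on the start had an observed over expected CpG ratio of at least 0.6 and a GC content of at least 50%. Of 21404 promoters, 10466 (48.9%) met both limits, and the other 10938 served for comparison. The median CpG ratio was 0.839 at CpG-rich promoters and 0.242 at the others, and the median GC content was 65.2% and 49.2%. The choice used sequence alone, so the DNase I values were not part of it.

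Hypersensitive sites are stretches of chromatin that the nuclease DNase I can reach, and here they were read from short sequence tags at the cut ends. Of the groups studied, G1E-ER4 cells carry a restored Gata1, which encodes a factor needed for red cells to mature, in a form that estradiol activates, and they were taken 24 h into differentiation with 10 nM beta-estradiol. G1E cells are the parental erythroid progenitors without Gata1 and received no treatment. Both lines are labelled male, of strain 129 and of stem cell origin (embryonic day 0). Each state was 1 sample with 2 peak lists, called list 1 and list 2 below. Line, restored gene, estradiol and sample differed together, so their effects cannot be told apart, and the labels do not say if a state's lists stem from different cultures, so their spread may be technical.

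Vertebrate genomes have lost most of their CpG dinucleotides, because methylated cytosine readily mutates. Stretches that stay unmethylated keep their CpG, and many promoters lie in such CpG islands. The promoters of genes that every cell needs are typically of this kind and open in all tissues. The promoters of developmental regulators are often CpG islands too, and Polycomb proteins hold many of them silent in cells that do not use the gene.

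Promoters of each kind of behaviour described below are shown first, so that their CpG density can be seen. Each line gives 120 bases just upstream of the start on the transcribed strand of mm9, 5' to 3', with every CG in capitals. The windows overlapped no annotated exon. Gadd45b (chr10:80392716-80392835, plus strand, 11 CG) ranked near the top of every list. Rgs9 (chr11:109159444-109159563, minus strand, 14 CG) and Cbx8 (chr11:118902284-118902403, minus strand, 12 CG) ranked higher in G1E-ER4. Ppap2c (chr10:78996533-78996652, minus strand, 8 CG) and Tiam1 (chr16:90144015-90144134, minus strand, 14 CG) ranked lower there. Kcnj10 (chr1:174271221-174271340, plus strand, 8 CG) had a peak in G1E-ER4 lists alone, and Mccc2 (chr13:100785595-100785714, minus strand, 13 CG) in G1E lists alone. Epha5 (chr5:84846408-84846527, minus strand, 11 CG) and Elavl4 (chr4:110024515-110024634, minus strand, 10 CG) had no peak in any list. Fam83f (chr15:80501663-80501782, plus strand, 4 CG) lay just outside the limit on the CpG ratio.
Gadd45b: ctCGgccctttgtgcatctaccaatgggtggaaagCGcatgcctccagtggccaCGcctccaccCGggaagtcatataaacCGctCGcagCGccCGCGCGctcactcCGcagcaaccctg
Rgs9: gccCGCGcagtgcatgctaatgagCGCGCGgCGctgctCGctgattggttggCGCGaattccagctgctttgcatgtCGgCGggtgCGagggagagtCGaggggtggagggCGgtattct
Cbx8: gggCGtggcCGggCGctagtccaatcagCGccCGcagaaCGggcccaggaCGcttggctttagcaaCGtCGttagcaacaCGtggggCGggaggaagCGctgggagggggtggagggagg
Ppap2c: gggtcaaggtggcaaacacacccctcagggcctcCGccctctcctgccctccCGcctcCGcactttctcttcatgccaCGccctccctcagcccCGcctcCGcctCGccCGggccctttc
Tiam1: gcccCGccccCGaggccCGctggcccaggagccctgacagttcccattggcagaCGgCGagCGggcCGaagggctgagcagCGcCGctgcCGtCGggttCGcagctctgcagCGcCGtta
Kcnj10: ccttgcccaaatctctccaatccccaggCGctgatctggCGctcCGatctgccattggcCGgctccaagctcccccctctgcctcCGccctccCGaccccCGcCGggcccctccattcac
Mccc2: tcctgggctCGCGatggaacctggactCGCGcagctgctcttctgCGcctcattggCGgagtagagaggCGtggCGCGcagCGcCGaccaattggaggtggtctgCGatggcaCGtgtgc
Epha5: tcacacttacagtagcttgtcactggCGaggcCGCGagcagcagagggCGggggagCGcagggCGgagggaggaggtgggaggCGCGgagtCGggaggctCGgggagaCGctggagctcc
Elavl4: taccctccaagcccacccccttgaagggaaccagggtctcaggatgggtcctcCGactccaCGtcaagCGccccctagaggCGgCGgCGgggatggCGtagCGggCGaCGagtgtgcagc
Fam83f: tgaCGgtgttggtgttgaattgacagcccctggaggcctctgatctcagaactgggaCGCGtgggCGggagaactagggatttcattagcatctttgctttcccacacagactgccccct

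Every list held 100000 peaks on mm9, and the read depth behind them is unknown. A promoter was called open in a list when any peak reached within 1000 bp of its start, and the strongest such peak was used. Signals were compared only as a percentile within their own list, where 100 is the strongest peak. G1E-ER4 list 1 stood apart from the rest. Over the CpG-rich promoters open in all 4 lists its percentiles had Spearman correlations of 0.58, 0.63 and 0.64 with those of G1E-ER4 list 2, G1E list 1 and G1E list 2, against 0.80 to 0.85 among these other lists (n = 8527 promoters, which share their libraries). The median gap between the lists of a state was 4.12 points in G1E-ER4, against 1.53 points in G1E, while the state means differed by a median of 1.99 points in either direction. Among marker genes of the labelled cell type, the 3 with CpG-rich promoters (Tfrc, Tal1 and Zfpm1) were open in all 4 lists. So were 81.5% of all CpG-rich promoters, so these 3 do not tell cell types apart. Whatever their CpG content, 9 of 10 autosomal erythroid markers were open in all 4 lists, against 50.3% of all promoters and 20.5% of those not CpG-rich. No marker promoter of T cells, B cells, granulocytes and monocytes, fibroblasts, neurons or liver was CpG-rich. Open in all 4 lists were 1 of 4 T cell markers (Lck), 1 of 4 of B cells (Pax5) and 1 of 4 of fibroblasts (Col1a1). The same held for 1 of 5 of granulocytes and monocytes (Csf1r), 1 of 4 of liver (Apoa1) and 0 of 4 of neurons. Yet all 4 neuron markers and 3 of the 5 of granulocytes and monocytes had a peak in some of the lists. No list held a peak at 2 of 4 markers each of T cells, B cells and fibroblasts, 3 of 4 of liver and 1 of 5 of granulocytes and monocytes.

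CpG-rich promoters were open almost throughout, in both states. A peak was present at 88.2% and 96.2% of them in G1E-ER4 lists 1 and 2 and at 93.4% and 85.7% in G1E lists 1 and 2. At the other promoters the shares were 29.1%, 36.6%, 32.8% and 31.6% in the same lists. The gap between the kinds of promoter averaged 58.4 ± 2.87 percentage points (SD, n = 4 lists) and ran from 54.2 points in G1E list 2 to 60.6 in G1E list 1. An exact two-sided sign-flip permutation test over the 4 lists gave p = 0.13, the smallest value that 4 lists allow. The 4 lists come from 2 samples, so they are not 4 independent units, and the SD and p describe the lists only. Of the 10466 CpG-rich promoters, 8527 (81.5%, Wilson 95% interval 80.7 to 82.2%) were open in all 4 lists, against a share of 50.3% over all promoters and 20.5% of the others. Another 776 were open in 3 lists, 621 in 2 lists and 371 in 1 list, and 171 (1.63%) in none, against 53.6% of the other promoters and 28.2% of all.

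CpG-rich promoters also held the strong end of each list. Their peaks had median percentiles of 91.5 and 94.5 in G1E-ER4 lists 1 and 2 and 94.0 and 94.4 in G1E lists 1 and 2. The peaks of the other promoters that had one lay at medians of 80.5, 75.2, 75.1 and 79.99. Among the strongest 1% of all peaks, those chosen at a CpG-rich promoter made up 46.4% and 80% in G1E-ER4 lists 1 and 2 and 60.6% and 70.7% in G1E lists 1 and 2. Among all peaks of a list the shares were 8.27%, 9.08%, 8.82% and 8.01%. At the very top, Gadd45b, a stress-induced regulator of DNA repair and demethylation, ranked at percentiles 99.8 and 99.9 in G1E-ER4, against 99.9 and 99.9 in G1E. Clcn4-2, a chloride and proton exchanger gene, was at 99.92 and 99.98 in G1E-ER4, against 99.92 and 99.95 in G1E. Arid5a, an RNA-binding regulator of immune transcripts, Cnnm3, a magnesium transporter family gene, Arhgap33, Tcf19 and Tmem189 were also among the 10 with the highest mean.

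**Figure D1:**
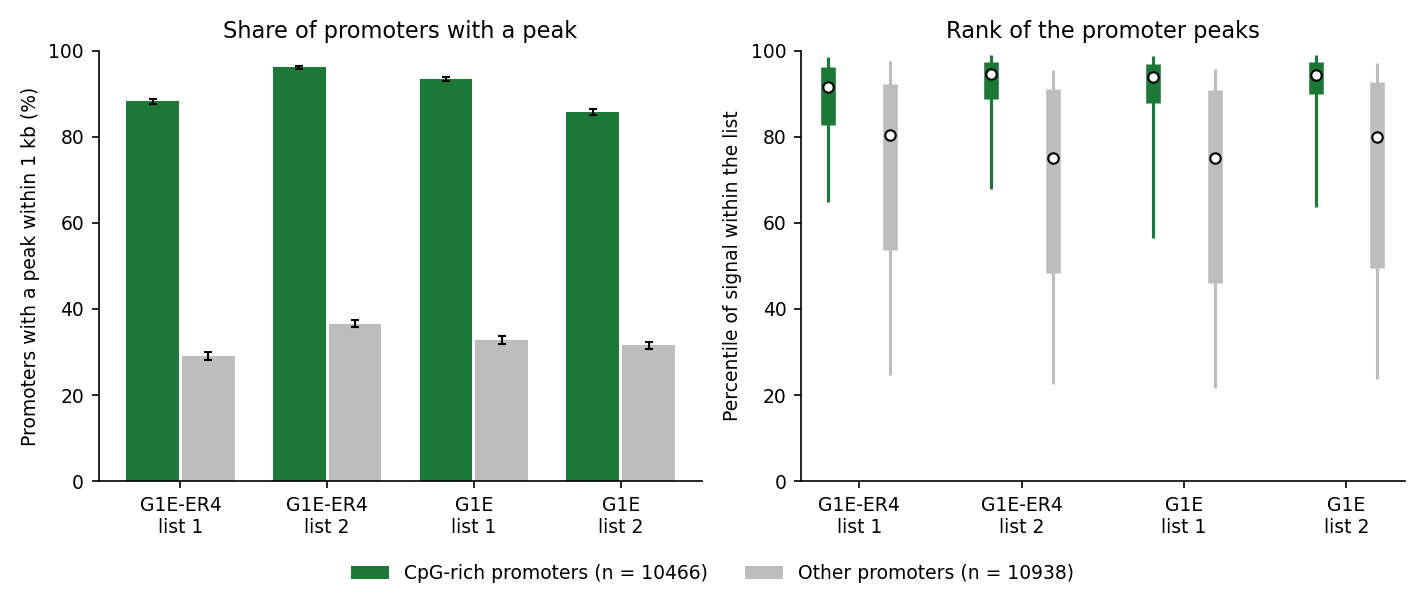
Left, share of promoters with a peak within 1 kb of the start in each list, with Wilson 95% intervals that cover the counting of promoters only. Right, percentile of the promoter peaks, with the median as a circle, the middle 50% as a thick bar and the 10th to 90th percentile as a line. CpG-rich promoters reach 85.7 to 96.2% in the 4 lists, against 29.1 to 36.6% for the other promoters.

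Openness rose with the CpG ratio. From a CpG ratio of 0.6 to 0.7, through 0.7 to 0.8, 0.8 to 0.9 and 0.9 to 1.0, to 1.0 or more, the share open in all 4 lists was 68.9%, 79.5%, 84.1%, 86.4% and 87.3%. The share open in none was 4.30%, 2.62%, 0.917%, 0.365% and 0.0759% over the same steps, the last being 1 promoter of 1318. With GC content the lists diverged. G1E-ER4 list 2 held peaks at 90.3% of promoters of 50 to 55% GC and at 99.8% of those of 75% or more, and G1E list 1 at 86.6% and 98.0%. G1E list 2 went the other way, with 85.5% and 79.4%, and G1E-ER4 list 1 stayed between 82.8% and 89.5% over the 6 steps. No CpG-rich promoter of 75% GC or more was closed in all lists, yet 76.7% of these were open in all 4, against 84.1% at 60 to 65% GC. There were 425 promoters missing from G1E list 2 alone, with a median GC of 70%, and 407 found in G1E-ER4 list 2 and G1E list 1 alone, with a median of 69.6%. Both groups lacked G1E list 2, and the second lacked G1E-ER4 list 1 as well.

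**Figure D2:**
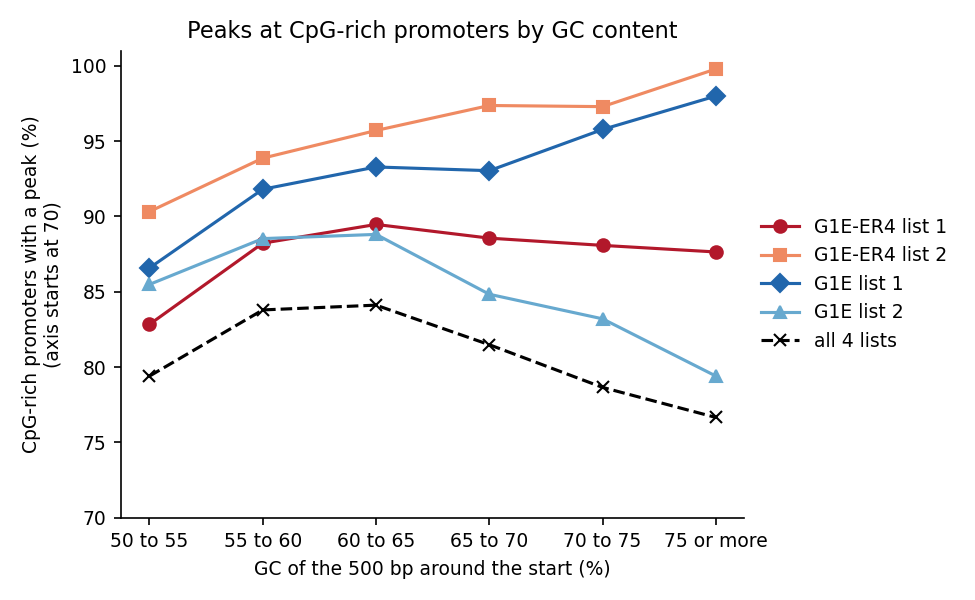
Share of CpG-rich promoters with a peak in each list (coloured lines) and in all 4 lists (dashed) by GC content of the 500 bp around the start, on an axis that starts at 70%. At 75% GC or more, G1E-ER4 list 2 and G1E list 1 reach 99.8% and 98.0%, while G1E-ER4 list 1 and G1E list 2 lie at 87.6% and 79.4%.

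Promoters shared by a divergent gene pair, where 2 genes start close together on opposite strands, were open more often than the rest. Of 1389 CpG-rich starts of this kind 96.2% were open in all 4 lists, against 79.2% of the other 9077. Such pairs can meet the same peak, so their starts are not separate observations. Near the limits of the rule the change was gradual. Between CpG ratios of 0.60 and 0.65, just inside, 66.2% of 710 promoters were open in all 4 lists, and between 0.55 and 0.60, just outside, 56.4% of 594. At GC contents of 50 to 52% the share was 77.3% of 163, and at 48 to 50%, with the CpG ratio met, 69.0% of 113. The member nearest to the limit on the CpG ratio was Ndufa4, a respiratory chain subunit gene, at percentile ranks 94.6 and 98.1 in G1E-ER4, against 96.7 and 94.6 in G1E. Fam83f, just outside, had peaks at 70.1 and 71.6 in G1E-ER4, at 30.9 in G1E list 1 and none in G1E list 2.

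The peaks sat on the starts. Their median summit positions were -52 and -20 bp from the start in G1E-ER4 lists 1 and 2, against -21 and -36 bp in G1E lists 1 and 2, negative values lying upstream. Within 100 bp of the start were 49.5% and 61.7% of the summits in G1E-ER4 lists and 59.6% and 57.3% in G1E lists, while the other promoters had 21.5 to 28.3%. The peaks covered the start itself at 84.3% and 97.9% of open CpG-rich promoters in G1E-ER4, against 95.3% and 94.8% in G1E. They reached farther into the gene than away from it, with medians of 837 and 1153 bp downstream and 731 and 752 bp upstream in G1E-ER4, and 904 and 1306 bp downstream and 611 and 942 bp upstream in G1E. Median widths were 1604 and 1984 bp in G1E-ER4, against 1580 and 2353 bp in G1E. At the other promoters they were 1113 and 1465 bp in G1E-ER4, against 1018 and 1484 bp in G1E. The lists of a state differed in median width by more than the states did.

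Very wide peaks were rare. Of the 8527 promoters open in all 4 lists, 41 (0.481%) had peaks of 5000 bp or more in every list. Zfpm1, whose product FOG-1 is the Gata1 cofactor, had widths of 8460 and 10500 bp in G1E-ER4, against 8372 and 9041 bp in G1E. The 41 also included Tal1, a partner of Gata1 in DNA-binding complexes, Myc, a driver of growth, Cebpb, a myeloid regulator, and Alad, an enzyme of heme synthesis, all named after their values were seen. By mean width, Sfi1, Gata2 and Crip2 led. Gata2, a progenitor factor that Gata1 is known to silence, had peaks of 16162 and 14473 bp at percentile ranks 97.0 and 98.4 in G1E-ER4. In G1E its peaks were 3254 and 19821 bp wide at percentile ranks 75.9 and 98.0, so G1E list 2 resembled G1E-ER4 and G1E list 1 did not. The 3 wide peaks had their summits at -4104, 4756 and 4747 bp from the start, and the narrow one at 48 bp. Fcgr3 was the fourth by mean width, but only 4.16% of the 20-base words around its start occur once on the mm9 autosomes, so its value is uncertain.

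Genes of basic cell functions had open CpG-rich promoters with few exceptions. All members with a CpG-rich promoter were open in all 4 lists for 31 starts of proteasome subunits, 34 of splicing factors, 34 of oxidative phosphorylation, 37 of DNA replication, 25 of mitosis and 19 of aminoacyl-tRNA synthetases. Of 44 ribosomal protein promoters, 42 were open in all 4 lists, and Rps20 and Rps23 lacked a peak in G1E-ER4 list 1 alone. The erythroid groups were as open, with 16 of 16 erythroid regulators, 18 of 18 heme and iron genes and 8 of 8 red cell membrane genes. Erythroid regulators had a median mean percentile of 96.1 and a median mean width of 3491 bp, beside 94.2 and 2030 bp over all CpG-rich promoters open in all 4 lists. Over all CpG-rich promoters the share open in all 4 lists was 81.5%, so these groups lay above it.

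Genes of other tissues were open in all 4 lists less often than the 81.5% over all CpG-rich promoters. Of 84 CpG-rich promoters of homeobox and other patterning factors, which lay out the body plan of the embryo, 36 (42.9%) were open in all 4 lists and none was closed in all. Their shares by list were 82.1% and 96.4% in G1E-ER4, against 86.9% and 58.3% in G1E, so G1E list 2 lacked most of the missing peaks. Of 36 Wnt, Bmp, Fgf and hedgehog signal genes 21 were open in all 4 lists and none was closed. Of 46 neuronal channel, receptor and synaptic genes 15 were open in all 4, and 5 were closed in all, beside 1.63% of all CpG-rich promoters, among them Cdh8, an adhesion gene, Elavl4, a neuronal RNA-binding protein gene, and Gria2 and Grik2, glutamate receptor genes. Germ line genes were the least open, with 3 of 27 in all 4 lists (11.1%), namely Prdm9, Stag3 and Tex14. Another 5 of the 27 were closed in all, again beside 1.63% over all CpG-rich promoters, namely the meiotic cohesin gene Smc1b, the synaptonemal gene Syce1, and Brdt, Mael and Rpl10l. Of 16 genes at imprinted promoters 10 were open in all 4 lists and Plagl1 was closed in all.

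**Figure D3:**
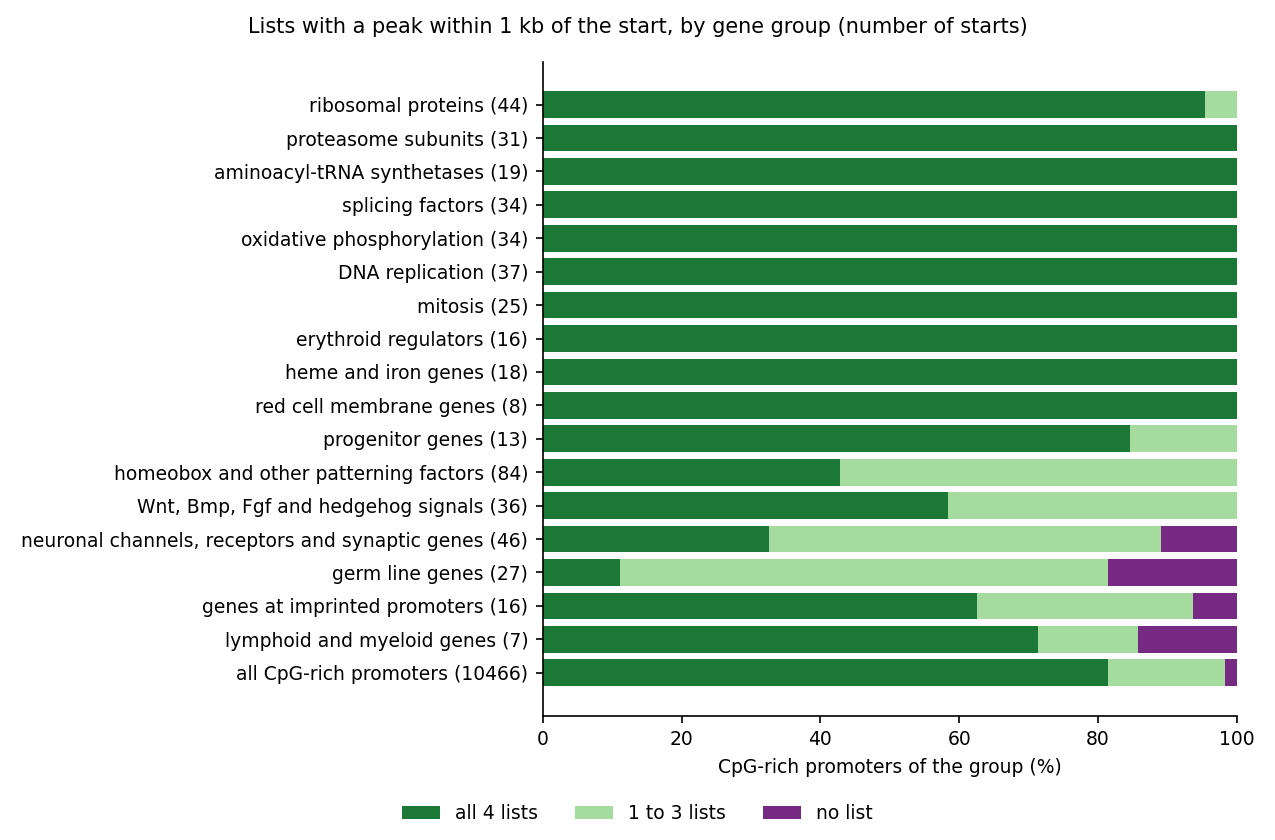
Share of the CpG-rich promoters of each gene group with a peak in all 4 lists, in 1 to 3 lists and in no list, with the number of starts in brackets. Groups of basic and erythroid functions are open in all 4 lists at 95.5 to 100%, patterning factors at 42.9% and germ line genes at 11.1%, beside 81.5% over all CpG-rich promoters.

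By percentile over the whole list, few CpG-rich promoters changed rank clearly between the states. A promoter was said to rank higher or lower in G1E-ER4 when it was open in all 4 lists, the percentiles of the states did not overlap and their means differed by at least 5 points. By this rule 486 of 8527 CpG-rich promoters (5.7%) ranked higher and 292 (3.42%) lower, against 7.47% and 4.51% of all promoters open in all 4 lists, and 14.2% and 8.66% of the other promoters. Peaks at CpG-rich promoters mostly lay nearer the top of the lists, with less room for a difference of 5 points, so these shares are not like for like. With percentiles taken among CpG-rich peaks alone, 1417 ranked higher and 995 lower. With 2 lists a state an exact permutation p-value cannot lie under 0.333, so these counts are a description of the lists and no test was made. Of the 8527 promoters 1816 shared all their peaks with another CpG-rich promoter. Promoters that ranked higher had median percentiles of 83.9 and 81.7 in G1E-ER4, against 65.4 and 52.4 in G1E, below the level typical of CpG-rich promoters in every list. Those that ranked lower had medians of 81.7 and 92.5 in G1E-ER4, against 95.03 and 95.28 in G1E.

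Single lists carried much of both counts. G1E-ER4 list 1 was the lowest of the 4 at 264 of the 292 promoters that ranked lower (90.4%), and G1E list 2 was the lowest at 356 of the 486 that ranked higher (73.3%). Leaving out G1E-ER4 list 1 gave 1079 higher and 208 lower promoters, and leaving out G1E-ER4 list 2 gave 781 and 2566. Without G1E list 1 the counts were 819 and 550, and without G1E list 2 they were 776 and 558. With a list left out its state has a single list, so non-overlap is easier to meet. These counts are therefore not like for like with those from all 4 lists. The place of the summit mattered as well. In G1E-ER4 list 1 the peak had its summit more than 1000 bp from the start at 53.1% of the promoters that ranked higher, against 10.1% of all CpG-rich promoters open in all 4 lists. When the summit itself had to lie within 1000 bp of the start, an alternative chosen after seeing the data, 235 of 7686 promoters ranked higher (3.06%) and 264 lower (3.43%). Of these, 231 and 257 had also been called with any peak in reach.

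**Figure D4:**
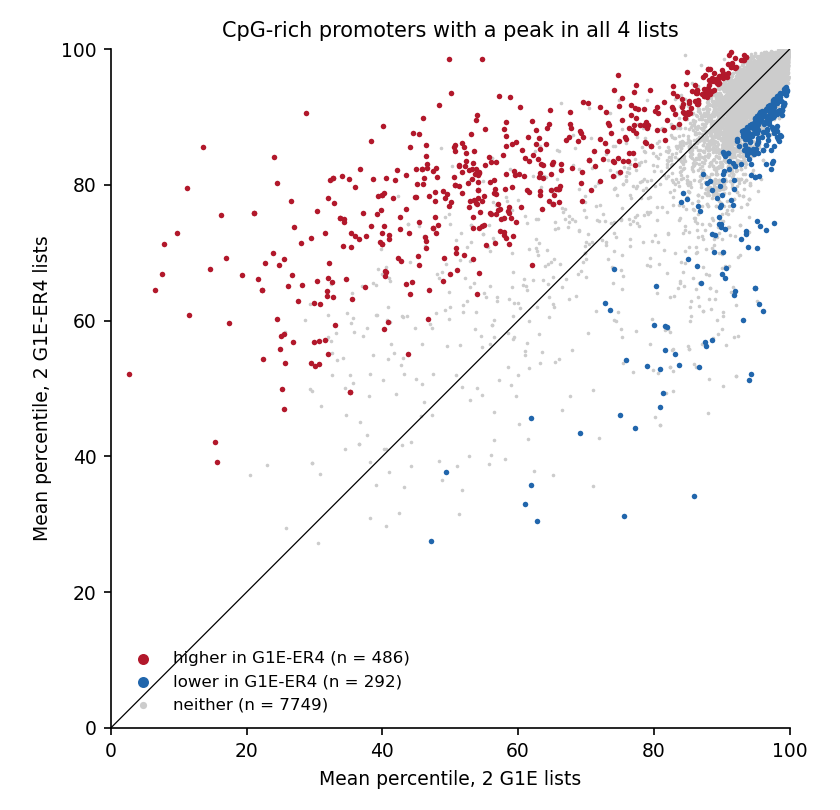
Mean percentile in the 2 G1E-ER4 lists (vertical) against the mean in the 2 G1E lists (horizontal) for the 8527 CpG-rich promoters with a peak in all 4 lists, with those ranking higher (486, red) or lower (292, blue) in G1E-ER4. Most points crowd into the top right corner, and the promoters ranking higher spread over the middle of the G1E scale.

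Shifts varied with level, GC content and chromosome. Among promoters with a mean percentile of 50 to 70, 195 of 417 (46.8%) ranked higher and 4.32% lower, while at 95 or more 0.250% ranked higher and 0.890% lower. At GC contents of 50 to 55% 4.13% ranked higher, and at 75% or more 11.6%. Chromosome 12 held 73 of the 292 that ranked lower (25%) but only 4.01% of all CpG-rich promoters, and 22.3% of its open promoters ranked lower. Chromosomes 7 and 3 had 10.8% and 9.69% of their open promoters ranking higher. Without chromosomes 3, 7, 9 and 12, 348 ranked higher and 182 lower. The part of level, GC content and chromosome in the shifts was not tested.

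The 12 largest shifts upward were at genes of varied function. Rgs9, a regulator of G protein signalling in photoreceptors and striatum, was at percentile ranks 61.5 and 81.0 in G1E-ER4, against 15.2 and 0.328 in G1E, a difference of 63.5 points between the state means. Cbx8, a Polycomb group gene, was at 87.6 and 80.6 in G1E-ER4, against 23.1 and 24.9 in G1E, a difference of 60.1 points. At both genes the lowest G1E-ER4 value lay far above the highest G1E value. Adam15, a metalloprotease gene, had the largest difference, 72.1 points, from percentiles of 97.5 and 73.8 in G1E-ER4, against 13.6 and 13.5 in G1E. Its peak in G1E-ER4 list 1 was 6642 bp wide with a summit at -4958 bp from the start. All 12 peaks of G1E-ER4 list 1 had their summit more than 1000 bp from the start, and with summits required within that distance 7 of the 12 still ranked higher, Cbx8 and Rgs9 among them and Adam15 not. The others included Fam155a, Nkx1-2, a homeobox gene, Adcyap1r1, Prss23, Rap1gap2, the calcium channel gene Trpv4, and Cd276 with Gm10657, which shared their peaks.

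The 12 largest shifts downward were smaller and leaned on 1 list. Cmtm7 was at percentile ranks 4.2 and 64.0 in G1E-ER4, against 85.4 and 86.5 in G1E, a difference of -51.9 points. Ppap2c, a lipid phosphatase gene, was at 17.1 and 45.5 in G1E-ER4, against 77.1 and 74.2 in G1E (-44.3 points), and Tiam1, an activator of the GTPase Rac, was at 19.12 and 85.3 in G1E-ER4, against 95.1 and 93.6 in G1E (-42.2 points). At 11 of the 12 genes G1E-ER4 list 1 was the lowest list, as at Tiam1, where G1E-ER4 list 2 stood within 10 points of G1E. With summits required within 1000 bp 11 of the 12 still ranked lower. The others included Sh3rf1, Cpsf2, which takes part in cutting pre-mRNA at its 3' end, Prkg1, Inpp5a, Hcrtr1 and the kinase gene Pim3. Hist1h2al also ranked lower, but only 49.3% of the 20-base words around its start occur once on the autosomes.

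**Figure D5:**
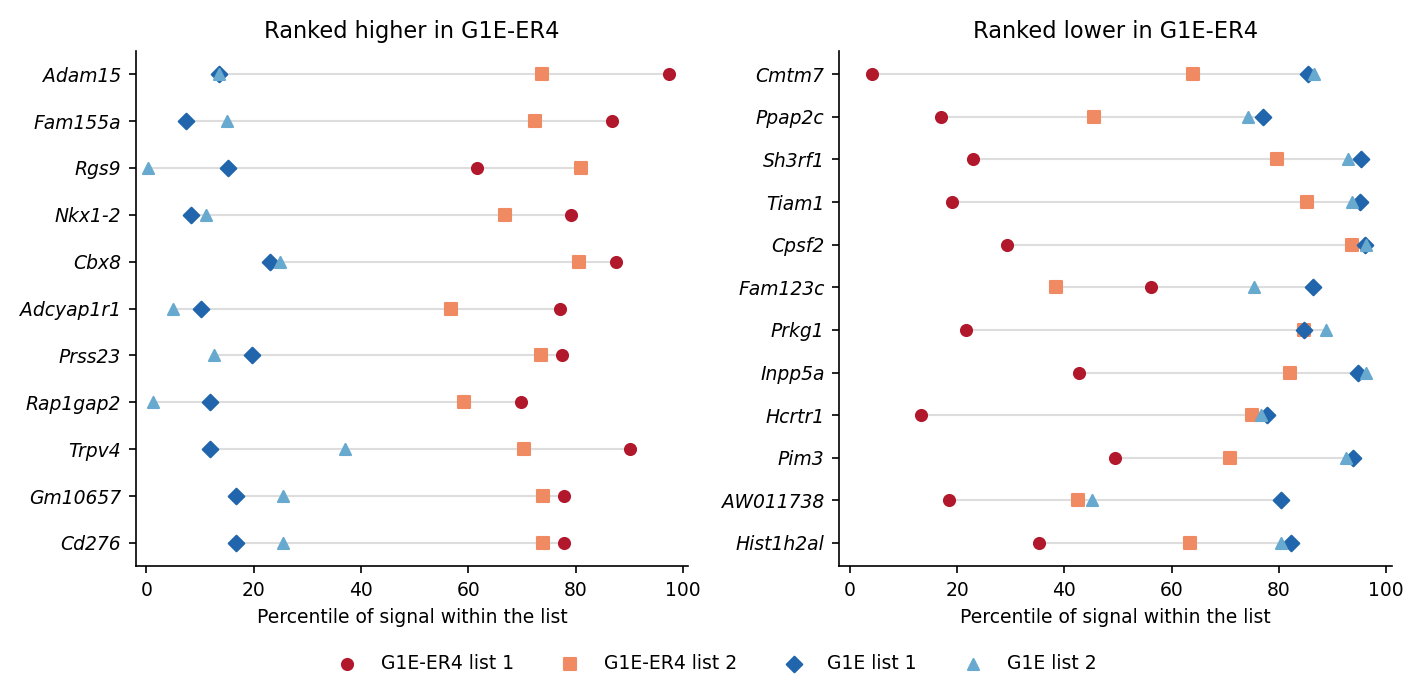
Percentile of the strongest peak within 1 kb of the start in each of the 4 lists for 11 of the 12 CpG-rich promoters with the largest difference upward (left) and the 12 with the largest difference downward (right) in G1E-ER4. On the left both G1E-ER4 lists lie at 56.9 or more and every G1E value at 37.0 or less, and on the right G1E-ER4 list 1 is the lowest list for 11 of the 12 genes.

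By gene group, many patterning factors ranked higher. Of the 36 that were open in all 4 lists 18 ranked higher and 1, Nkx2-1, lower, with a median difference of 15.7 points against -0.75 over all CpG-rich promoters. Barx1, a homeobox gene of the stomach and face, was at percentile ranks 77.5 and 87.1 in G1E-ER4, against 67.3 and 39.2 in G1E, and Dlx2, a forebrain homeobox gene, at 93.9 and 89.8 in G1E-ER4, against 75.5 and 77.9 in G1E. En1, which patterns the midbrain and limb, was at 76.5 and 70.5 in G1E-ER4, against 58.7 and 26.6 in G1E. Foxb1, a forkhead gene of the brain, was at 68.6 and 78.9 in G1E-ER4, against 26.9 and 27.1 in G1E. Most of these promoters sat at middle ranks, where shifts are common, and at mean percentiles of 50 to 70 the share was 13 of 17 patterning factors, beside 46.8% of all CpG-rich promoters. It was 1 of 3 below 50, beside 41.3%, and 3 of 7 at 70 to 80, beside 27.5%. At 80 to 90 it was 1 of 6, beside 6.63%, and at 95 or more 0 of 3, beside 0.250%. Leaving out 1 list gave 28 of 43 higher and 4 lower without G1E-ER4 list 1, and 24 of 39 higher and 5 lower without G1E-ER4 list 2. It gave 28 of 38 higher and 2 lower without G1E list 1, and 31 of 59 higher and 4 lower without G1E list 2. Over all CpG-rich promoters 12.3%, 9.11%, 9.57% and 8.67% ranked higher in these settings, and 2.36%, 29.9%, 6.43% and 6.23% lower. With summits required within 1000 bp, 16 patterning factors were open in all 4 lists. Of these, 6 ranked higher and none lower, beside 3.06% and 3.43% of all CpG-rich promoters in that setting. Beside 5.7% and 3.42% of all CpG-rich promoters, 7 of 21 signal genes ranked higher and 2 lower, and among neuronal genes 6 of 15 ranked higher and 2 lower. With summits required, 2 of 9 signal genes ranked higher and 1 lower, and of 4 neuronal genes 1 ranked higher and 1 lower. Of 5 lymphoid and myeloid genes open in all 4 lists 3 ranked higher, the regulators Cebpa, Tbx21 and Tcf7. Their group had a median mean percentile of 59.2, and at 50 to 70 the share over all CpG-rich promoters was 46.8%.

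In erythroid, heme and basic gene groups few promoters were called, as over all CpG-rich promoters, where 5.7% ranked higher and 3.42% lower. None of 16 erythroid regulators and none of 18 heme and iron genes ranked higher or lower by this rule. Their median mean percentiles were 96.1 and 96.2, which leaves little room below 100 for a difference of 5 points. At mean percentiles of 95 or more, 0.250% of all CpG-rich promoters ranked higher and 0.890% lower, so the rule could hardly call these groups. Of 42 ribosomal protein promoters Rpl22 and Rps28 ranked higher and Rps7 lower, and of 31 proteasome starts Psmb5 ranked higher and Psma3 and Psmb4 lower. Among 8 red cell membrane genes Ank1, which ties the membrane skeleton to band 3, ranked higher, at 73.9 and 81.3 in G1E-ER4, against 69.1 and 26.6 in G1E. Of 11 progenitor genes open in all 4 lists, Fli1 and Flt3 ranked higher and Kit and Lmo4 lower, the last pair named after their values were seen. Flt3, a growth factor receptor of early progenitors, was at 93.7 and 68.2 in G1E-ER4, against 40.5 and 36.7 in G1E. Kit, the stem cell factor receptor, was at 85.3 and 96.5 in G1E-ER4, against 98.4 and 98.1 in G1E, so G1E-ER4 list 2 lay close to G1E. Without G1E-ER4 list 1, 5 of 11 progenitor genes ranked higher and 1 lower, beside 12.3% and 2.36% of all CpG-rich promoters. Without G1E-ER4 list 2, 2 of 12 ranked higher and 6 lower, beside 9.11% and 29.9% of all CpG-rich promoters. With summits required within 1000 bp, 7 of 13 progenitor genes were open in all 4 lists and 1 was open in G1E alone. Of the 7, 1 ranked higher and 2 lower, beside 3.06% and 3.43% of all CpG-rich promoters.

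Few CpG-rich promoters were open in 1 state alone. Both lists of G1E-ER4 but neither list of G1E held a peak at 109 of 10466 (1.04%), and the reverse held at 27 (0.258%), against 1.23% and 0.883% of all promoters and 1.42% and 1.48% of the other promoters. Their peaks were weak, with median percentiles of 48.5 and 61.1 in the G1E-ER4 lists for the 109 promoters and 53.7 and 47.4 in the G1E lists for the 27. For comparison, 407 promoters were open in G1E-ER4 list 2 and G1E list 1 and in neither other list. The counts for G1E-ER4 alone and G1E alone were 370 and 70 without G1E-ER4 list 1, 155 and 302 without G1E-ER4 list 2, 534 and 47 without G1E list 1, and 142 and 71 without G1E list 2. With a single list left in a state these classes are easier to meet than with both. With peaks within 200 bp they were 39 and 46, so their order turned there and without G1E-ER4 list 2. Abcc8, the sulfonylurea receptor gene, led the G1E-ER4 group at percentile ranks 93.8 and 74.6, but the first of these peaks had its summit at -1755 bp from the start. Kcnj10, a potassium channel gene of glia and kidney, was at 67.1 and 80.7, and Ikzf3, an Ikaros family gene of lymphocytes, at 80.03 and 64.7, with all summits within 1000 bp. Patterning genes among the 109 included Evx1, Hoxd1, Irx1 and Ptf1a. Of 84 patterning factors 5 were among the 109 and 0 among the 27, beside 1.04% and 0.258% of all CpG-rich promoters. With summits required within 1000 bp, 3 were open in G1E-ER4 alone and 3 in G1E alone. At Irx1 the peak of G1E-ER4 list 1 had its summit at 1045 bp from the start, and its rank there was 0.585 with summits required. In the G1E group Mccc2, an enzyme of leucine breakdown, was the strongest at 89.9 and 93.4, with summits at 3 and -22 bp from the start. S100z was at 78.2 and 81.6, with summits at 1304 and 1220 bp from the start, and did not stay in this group when summits had to lie within 1000 bp. D14Ertd449e, also among them, has no 20-base word around its start that occurs once. With summits required within 1000 bp the counts were 96 and 69, of which 59 and 22 were the same promoters.

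The 171 closed CpG-rich promoters spanned the range of CpG ratios. Their median ratio was 0.719 and their median GC content 60%, against 0.839 and 65.2% over all CpG-rich promoters, with 72 under a ratio of 0.7 and 64 at 0.75 or more. In 20 of them (11.7%) fewer than 50% of the 20-base words around the start occur once on the autosomes, against 1.02% of promoters open in all 4 lists, and 36 of the 171 carried names of predicted genes, beside 943 of all 10466. The nearest peak of any list was at a median distance of 6861 bp, with 76 promoters within 5000 bp of a peak and 51 more than 20000 bp away. Of 43 that had another annotated start more than 1000 bp away, 21 had a peak there in at least 1 list and 4 in all 4 lists, Fbxl5, Sema6d, Zfp663 and Zfp800. Magohb, an exon junction complex gene, was closed although its ratio of 1.29 was the highest of all 10466, and a further start of the gene had a peak in 3 lists. Epha5, a guidance receptor gene of neurons, had a ratio of 0.998, with the nearest peak 1490 bp away. Elavl4 had a ratio of 0.966 with the nearest peak 263725 bp away, and Irf8, a regulator of macrophages and lymphocytes, a ratio of 0.907 with the nearest peak 1297 bp away. The divergent pair Ribc2 and Smc1b was closed at both starts.

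Short sequence patterns were counted from 250 bp before to 49 bp after each start, on both strands. A GGGCGG box, the core bound by Sp1, occurred at 73.2% of CpG-rich promoters, at 16.5% of the others and at 44.3% of all. CCGGAAG, a core of ETS factor sites, occurred at 22.4% of CpG-rich promoters open in all 4 lists, at 5.49% of those open in 1 to 3 lists and at 8.77% of those closed in all, beside 11.1% of all promoters. Promoters that ranked lower in G1E-ER4 held it at 20.9%, and those that ranked higher at 3.70%. CCAAT, the box bound by NF-Y, occurred at 57.0% of the CpG-rich promoters open in all 4 lists with a mean percentile of 96.8 or more and at 29.5% of those at 90.2 or less, beside 37.6% of all promoters. AGATAA, a sequence that Gata1 and its relatives recognise, was rarer at CpG-rich promoters (4.50%) than at the others (15.6%), as was TATAAA (5.52% and 21.1%). The stretch counted lies inside the 500 bp whose GC and CpG content defined the kinds of promoter. Base composition alone can thus raise GGGCGG and lower AGATAA and TATAAA at CpG-rich promoters, and its part was not tested. A match says nothing on whether a factor was bound.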

How the data were processed

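Per the series' design text, DNase I-cut ends from 3 enzyme concentrations were captured as 20-base tags and mapped to mm9 with Bowtie, and a tag matching more than 1 place was assigned to the best one. The authors then made a density with F-seq and called peaks from a gamma fit. Tool versions were not given in the sources used here. Each deposited list has its own peaks, not pooled ones, with the authors' signal per peak, which was used only to rank peaks within a list. Read depth is unknown, and intervals cover counting error only.

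Promoters came from the GENCODE vM1 annotation of mm9. Of 21410 autosomal genes, 6 with undetermined bases were left out. Positions are 1-based. Named genes were the 12 largest differences each way, the 8 strongest of each 1-state class, the 10 strongest, the 10 widest, the 12 closed with the highest CpG ratio, 5 on each side of each limit, and up to 4 of each gene list that departed from its majority. The members, lists and rules were chosen with earlier results of these data known. Some named genes are not reported here. Of 12 sequence patterns counted, 5 are given. Peak matching was tested on simulated data, where 4000 of 4000 promoters fell in their class. The simulated starts lay far apart, with at most a single peak each and rank gaps far above the noise. The test thus checked the code, not neighbouring starts or ranks near the 5-point limit. Python 3.11.15, numpy 2.4.6, pandas 2.3.3, scipy 1.17.1 and matplotlib 3.10.9 were used.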

Additional observations from a re-analysis of the deposited data

How the results depend on the processing

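Of 147 values of 10 results under alternative settings, 49 moved beyond the limit set for them (1.5 times for a count, the binomial interval for a share, the sign for the gap between kinds of promoter, the spread between lists for medians), 2 changed sign and 96 stayed within it. The share of CpG-rich promoters open in all 4 lists (81.5%) was 77.5% with peaks within 200 bp, 83.6% within 2000 bp, 82.7% with a 1000 bp window, 84.8% with limits of 0.75 and 55%, 75.6% with the top 50% of each list and 80.2% with neighbouring starts counted once. The closed share (1.63%) was 2.49%, 1.27%, 1.02%, 0.737% and 5.15% under the first 5 of these. Promoters ranking higher (486) numbered 318 with the stricter limits, 248 with the top 50% (254 lower there), 328 with peaks within 200 bp (284 lower), 1417 with percentiles among CpG-rich peaks alone and 895 at 2 points. Those ranking lower (292) numbered 185 with the stricter limits, 182 without chromosomes 3, 7, 9 and 12, 995 among CpG-rich peaks, 763 at 2 points and 97 at 10 points. Promoters open in G1E-ER4 alone (109) numbered 39 within 200 bp, 62 with the stricter limits and 181 with the top 50%, and those open in G1E alone (27) numbered 46 within 200 bp, 17 with the 1000 bp window and 8 with the stricter limits. The median difference between states (-0.75 points) was 0.69 among CpG-rich peaks and 0.86 without G1E-ER4 list 1, and the cause of these changes of sign was not tested.

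Leaving out 1 list gave 81.8 to 85.5% open in all lists used, 1.82 to 4.13% closed, 776 to 1079 higher, 208 to 2566 lower, 142 to 534 open in G1E-ER4 alone, 47 to 302 open in G1E alone, and median differences of -1.93 to 0.86 points. The rules behind these shares and counts are easier to meet with fewer lists, so they are not like for like with the main values. In 2 alternatives chosen after seeing the data, a peak near any annotated start of the gene gave 82.5% open in all 4 lists, and a summit within 1000 bp gave 73.4% open, 2.42% closed, 235 higher and 69 open in G1E alone. No paired analysis was possible because each state is 1 sample and the labels give both the same replicate number, so fewer than 2 numbers are shared.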
